A study of Mus musculus with 36 samples.

Results

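The liver of mice under chronic intermittent hypoxia (IH) was compared between ZT20 and ZT8, where ZT counts the hours after lights on. ZT8 closes the daily hypoxic window, late in the light phase, and ZT20 lies late in the dark, active phase, when the animals breathed room air. The 6 libraries labelled IH at these times, 3 per time, were taken by their labels from 36 in all. The animals were male wild-type C57BL/6JRj mice, 16 weeks old, kept 5 per cage in 12 h of light with free access to chow. IH meant 60 cycles per hour between 21% and 5% inspired oxygen from ZT0 to ZT8, every day for 4 weeks. The control mice of the same strain, sex and age received air cycles in the same way, and their 6 libraries of ZT8 and ZT20 were compared by the same test as a reference. Each library was made from polyadenylated RNA of frozen liver, and the study's methods give 3 mice per group. Within IH the time of day, the light phase and the hours since hypoxia changed together and cannot be told apart, and in such bulk RNA fewer cells of a type and less RNA per cell cannot be told apart either.

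The liver clock is a loop of transcription factors. BMAL1 (Arntl) with CLOCK or NPAS2 activates genes through E-box sequences, among them the Per and Cry genes, whose products block the activators, and the REV-ERB receptors (Nr1d1 and Nr1d2), which repress Arntl. The PAR bZIP factors DBP, TEF and HLF and their opponent NFIL3 pass the rhythm on to detoxification and lipid genes. In the mouse liver the clock and the nightly meal together set the daily timing of glycogen, lipid, bile acid and xenobiotic metabolism, and heat shock and protein folding genes rise with body temperature and feeding at night.

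Expression was given by the authors as FPKM, that is, fragments scaled to transcript length and library size. Differences are on the log2(FPKM + 1) scale as ZT20 minus ZT8, so a negative value means a higher level at ZT8, and they understate the change of genes of low expression. The 6 IH libraries summed to between 546394 and 559661 FPKM over the symbols on 1 row, with 15960 to 16105 symbols above 0, and Pearson's r between replicates across genes was 0.9953 to 0.9972. The number of reads is not given, but the smallest steps of low values placed the depth of the ZT20 libraries at 1.149 to 1.189 times that of ZT8 replicate 1 and the other ZT8 libraries at 0.951 and 0.972. Depth thus moved with time, and its part in the results was not tested. The 12 hepatocyte markers, secreted plasma proteins among them, summed to 79800 to 82610 FPKM at ZT8 and 79810 to 82870 at ZT20, which overlapped, and 4 were called, 2 in each direction.

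Of 13215 genes tested with limma in IH, 1789 (13.5%) were called higher at ZT20 and 2060 (15.6%) higher at ZT8 at an adjusted p under 0.05, together 3849 (29.1%). The larger side turned under median-of-ratios scaling (2104 and 2005), rescaling to the same sum (1904 and 1878) and without ZT20 replicate 3 (1738 and 1622). In 6138 genes (46.4%) the 3 libraries of the higher time all lay above the 3 of the lower time. Most calls were small. The median size was 0.41 for calls higher at ZT20 and 0.38 for calls higher at ZT8, against a median replicate SD of 0.09, and 171 and 136 genes reached a log2 difference of 1. The median over all genes tested was 0.00. Counts by gene list below are to be read beside the shares of 13.5% and 15.6%, and none was tested against them. The counts dropped to 1034 and 1273 without ZT8 replicate 1, to 1065 and 1229 without ZT8 replicate 2, and to 1173 and 1505 without ZT20 replicate 1. A fit without a library also has less power. Such drops, here and in the lists below, therefore cannot by themselves show reliance on single animals. Over the 6 times sampled in IH, 1553 of the 2060 genes higher at ZT8 (75.4%) had their highest mean there. Their lowest mean was at ZT16 in 644 (31.3%), at ZT0 in 552 (26.8%) and at ZT20 in 499 (24.2%). Of the 1789 higher at ZT20, 685 (38.3%) were highest at ZT20 and 628 (35.1%) at ZT0, while 1187 (66.3%) had their lowest mean at ZT8. The same ZT8 and ZT20 libraries chose these genes, which by itself raises the shares at the 2 times. Shares over all genes tested were not computed, so these only describe the called genes.

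**Figure D1:**
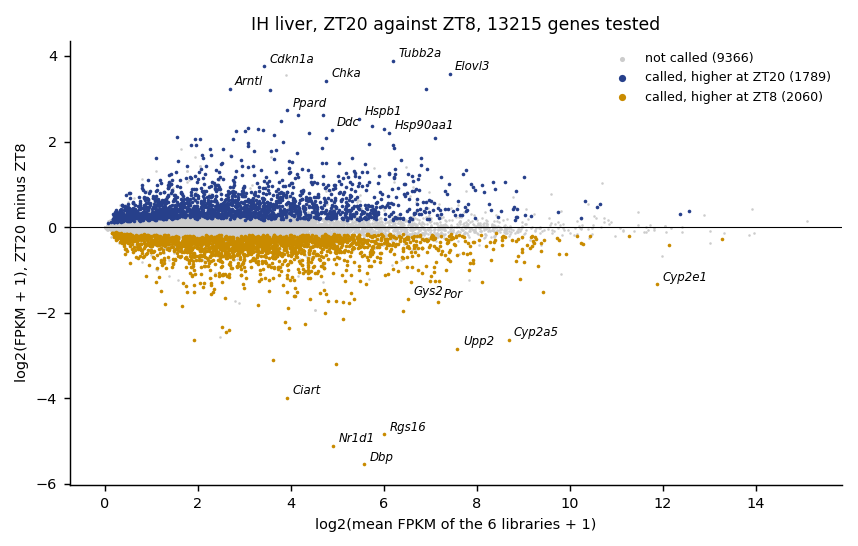
Difference between ZT20 and ZT8 in IH liver on the log2(FPKM + 1) scale (y) against log2 of the mean FPKM of the 6 libraries + 1 (x), 1 point per gene tested. Blue points are the 1789 genes called higher at ZT20, ochre points the 2060 called higher at ZT8, and grey points were not called. Dbp, Nr1d1, Rgs16 and Ciart lie lowest, and Tubb2a, Cdkn1a, Elovl3 and Chka highest among labelled genes.

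Core clock genes differed widely. All 3 activators were higher at ZT20, 4 of the 6 Per, Cry and Ciart repressors were higher at ZT8, and the REV-ERB genes were nearly silent at ZT20. In all, 17 of 24 core clock members were called, 6 higher at ZT20 and 11 higher at ZT8, and without ZT8 replicate 1 or ZT8 replicate 2 the called Per, Cry and Ciart repressors higher at ZT8 were 2. The plot of clock genes by library shows these levels.

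Arntl (chromosome 7, 113207465 to 113314126, plus strand, mm10), the activator at the head of the loop, stood at 0.216, 0.314 and 0.197 FPKM at ZT8 and at 10.8, 10.6 and 10.4 at ZT20. The 2 times were far apart and the 3 ZT20 libraries nearly equal, a log2 difference of 3.23 (SE 0.063, n = 3 per time, adjusted p = 4.26e-06). Npas2 went from 0.0206, 0.0217 and 0.0459 to 2.33, 1.5 and 2.86 FPKM (log2 difference 1.63, SE 0.15, adjusted p = 0.000927). Clock, the other partner of BMAL1, went from 0.945, 1.18 and 1.12 to 3.71, 3.49 and 3.68 (1.15, SE 0.066, adjusted p = 0.00021). Neither gene's times overlapped, as in 46.4% of all genes tested.

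On the repressor side Nr1d1 (chromosome 11, 98767932 to 98775333, minus strand), which encodes REV-ERB alpha, had 58.0, 64.5 and 50.5 FPKM at ZT8 and 0.71, 0.585 and 0.776 at ZT20. Every ZT8 library was above 50 and every ZT20 library below 1, which gave a log2 difference of -5.11 (SE 0.099, adjusted p = 4.26e-06). Nr1d2, encoding REV-ERB beta, had 21.9, 21.6 and 19.9 at ZT8 against 1.29, 1.79 and 1.67 (-3.10, adjusted p = 2.06e-05). Rora, whose product activates through the sites that REV-ERB represses, did not pass the test, with overlapping libraries at 3.17 to 4.37 and 3.65 to 4.91.

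Ciart, the repressor also called Chrono, was at 32.2, 27.3 and 22.9 FPKM at ZT8 and at 0.864, 1.2 and 0.386 at ZT20 (-3.98, SE 0.19, adjusted p = 0.000109). Per3 was at 8.82, 9.01 and 7.64 against 0.881, 1.35 and 0.529 (-2.33, adjusted p = 0.000336). The other Per genes did less. Per1 was called higher at ZT8 (-0.93, SE 0.27, adjusted p = 0.0435), with 14.4, 16.6 and 14.5 at ZT8 and a wide 4.28, 9.19 and 10.2 at ZT20, a call that 10 of the other settings lost. Per2 was not called, with 5.79 to 8.36 and 5.43 to 9.6 FPKM. The cryptochromes split, since Cry1 was higher at ZT20 (2.28, 2.94 and 2.73 against 15.6, 19.0 and 15.0, log2 difference 2.26, adjusted p = 0.000109) and Cry2 higher at ZT8 (-0.71, adjusted p = 0.0133).

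**Figure D2:**
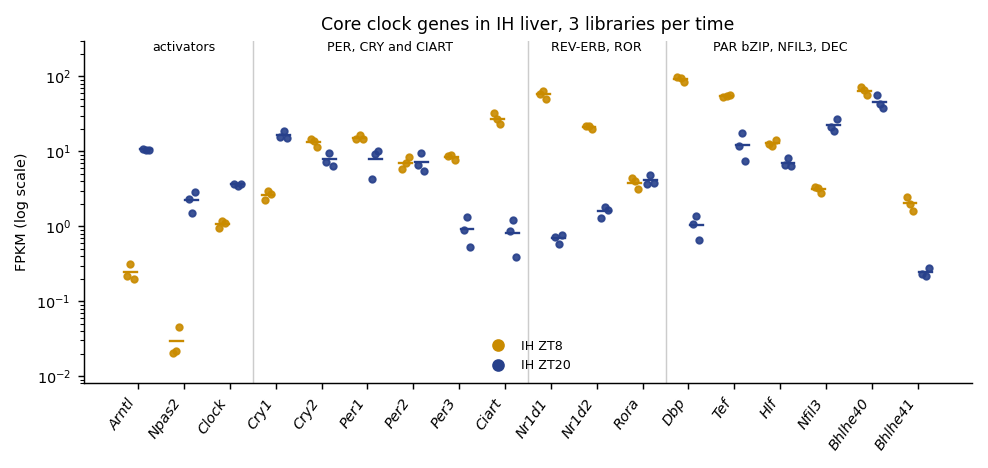
FPKM (log axis) of 18 core clock genes in the 3 IH libraries of ZT8 (ochre) and of ZT20 (blue), with short lines at the means. The activators, Cry1 and Nfil3 were higher at ZT20, the remaining called genes were higher at ZT8, and Per2, Rora and Bhlhe40 overlapped.

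Among the output factors, Dbp (chromosome 7, 45705088 to 45710203, plus strand) had the widest difference on the log2(FPKM + 1) scale of all genes named here. Its FPKM was 98.7, 95.4 and 84.4 at ZT8 and 1.08, 1.36 and 0.648 at ZT20, a log2 difference of -5.54 (SE 0.14, adjusted p = 1e-05) and a 90.3-fold difference of the means. Tef (53.8, 55.1 and 56.4 against 11.9, 17.6 and 7.48, log2 difference -2.15) and Hlf (11.7 to 14.0 against 6.31 to 8.12, log2 difference -0.79) went with it. Nfil3, which competes with these factors for the same sites, was instead at 3.38, 3.21 and 2.76 at ZT8 and at 21.2, 18.8 and 27.1 at ZT20 (2.49, SE 0.14, adjusted p = 0.000159). Of the DEC repressors, Bhlhe41 was called (-1.27, adjusted p = 0.000657) and Bhlhe40 was not (adjusted p = 0.0577). Of the 5 kinases and ubiquitin ligase parts that act on PER and CRY protein, only Btrc was called, by a log2 difference of -0.21.

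Promoter windows of RefSeq genes (GRCm38.p6, 250 bases before to 50 after a start site) were searched on both strands for E-box CACGTG, D-box TTATGTAA, the REV-ERB and ROR site in an A form TAGGTCA and a G form TGGGTCA, the heat shock element GAANNTTC and the cyclic AMP element TGACGTCA. No 2 of these motifs share all their letters. Windows matched 9981 of the 13215 genes tested. By these letters an E-box stood in 11.7% of the genes tested, in 11.0% of those called higher at ZT20 and in 13.8% of those called higher at ZT8. The D-box was in 0.802%, 1.06% and 1.09% of these 3 sets, the A form of the REV-ERB site in 2.56%, 3.54% and 2.63%, the G form in 4.21%, 4.3% and 4.36%, the heat shock element in 7.22%, 8.21% and 7.37%, and the cyclic AMP element in 3.53%, 4.3% and 3.46%. These shares lay close together and were not tested. Over all 32851 windows of the table, 7.15% held the E-box, 0.938% the D-box, 2.61% and 3.98% the 2 forms of the REV-ERB site, 7.86% the heat shock element and 1.79% the cyclic AMP element.

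Of the 18 core clock genes with a window, 5 held an E-box, 1 a D-box, 2 the A form of the REV-ERB site, none the G form or the heat shock element, and 1 the cyclic AMP element. The 4 promoters that follow are shown because they carry the site classes through which the loop is known to work, with each match in capitals, 5′ to 3′ on the gene's strand. Both genes with the A form, Arntl and Nfil3, were higher at ZT20. The 5 genes with an E-box went both ways, with Per1, Ciart, Tef and Bhlhe41 higher at ZT8 and Cry1 higher at ZT20. The Arntl window at chr7:113207261-113207560 (plus strand) holds its match from base 281, and the Nfil3 window at chr13:52980990-52981289 (minus strand) holds the complement from base 239.
Arntl: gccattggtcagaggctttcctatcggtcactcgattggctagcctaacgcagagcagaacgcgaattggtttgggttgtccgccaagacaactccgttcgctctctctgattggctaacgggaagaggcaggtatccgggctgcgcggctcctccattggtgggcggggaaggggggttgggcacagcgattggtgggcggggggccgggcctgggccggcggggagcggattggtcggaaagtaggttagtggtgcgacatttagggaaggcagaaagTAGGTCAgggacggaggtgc
Nfil3: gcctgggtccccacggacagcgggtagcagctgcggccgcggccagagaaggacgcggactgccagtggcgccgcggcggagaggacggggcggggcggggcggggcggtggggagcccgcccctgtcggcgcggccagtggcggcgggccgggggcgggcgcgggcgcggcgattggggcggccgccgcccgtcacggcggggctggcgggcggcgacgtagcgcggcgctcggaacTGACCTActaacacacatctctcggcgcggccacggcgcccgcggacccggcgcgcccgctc
Ciart (chr3:95882179-95882478, minus strand), higher at ZT8, had 3 E-boxes, from bases 135, 193 and 207. Per3 (chr4:151044616-151044915, minus strand), also higher at ZT8, had 2 D-boxes, from bases 46 and 93. A match is a description of letters and not a site of binding, which was not measured in these samples.
Ciart: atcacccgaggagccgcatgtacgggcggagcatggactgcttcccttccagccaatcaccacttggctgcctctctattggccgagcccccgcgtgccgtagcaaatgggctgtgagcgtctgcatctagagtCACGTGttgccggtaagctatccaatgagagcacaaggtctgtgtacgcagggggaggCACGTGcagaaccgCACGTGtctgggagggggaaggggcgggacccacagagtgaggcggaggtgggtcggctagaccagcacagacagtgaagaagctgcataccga
Per3: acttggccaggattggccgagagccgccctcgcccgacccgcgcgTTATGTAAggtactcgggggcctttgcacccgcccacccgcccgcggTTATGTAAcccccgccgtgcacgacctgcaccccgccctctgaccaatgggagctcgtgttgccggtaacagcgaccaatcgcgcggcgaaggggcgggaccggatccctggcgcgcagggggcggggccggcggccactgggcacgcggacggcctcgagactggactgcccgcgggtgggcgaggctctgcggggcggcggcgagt

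Beyond the clock, the genes named for the smallest P or the widest differences higher at ZT20 had varied roles. Chka, choline kinase alpha, the entry step of phosphatidylcholine synthesis, went from 3.38, 4.13 and 3.38 FPKM to 50.5, 48.1 and 46.9 (3.42, SE 0.078, adjusted p = 8.01e-06). The 3 libraries of each time were close together and no value fell between the 2 groups. Elovl3, a fatty acid elongase, went from 26.8, 26.7 and 22.1 to 264, 348 and 332 (3.59, adjusted p = 3.65e-05), and Ppard, a nuclear receptor for fatty acids, from 2.97, 2.71 and 3.25 to 27.0, 22.2 and 27.1 (2.73, adjusted p = 3.67e-05). Acnat2 rose by 2.25, Cml5 by 2.62 and the mitochondrial protease part Clpx by 2.36. The beta tubulins Tubb2a (9.04, 9.65 and 6.59 against 153, 126 and 133) and Tubb2b (1.46, 1.4 and 0.977 against 22.2, 18.2 and 19.8) rose by 3.88 and 3.21, but they lie side by side on chromosome 13 as near copies between which reads can be shared. Serpina4-ps1, a pseudogene, rose by 3.22 with a wide spread of 71.8 to 391 at ZT20.

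Cdkn1a, the cell cycle inhibitor p21, was almost off at ZT8 (0.413, 0.359 and 0.384 FPKM) and at 10.3, 21.3 and 25.2 at ZT20 (3.76, SE 0.29, adjusted p = 0.000592). Wee1, a kinase that delays mitosis, went the other way, from 8.13, 8.19 and 7.84 to 2.21, 2.3 and 1.28 (-1.65, adjusted p = 0.000808), as did Ccne1, cyclin E1, from a mean of 1.53 to 0.14 FPKM (-1.15, adjusted p = 0.000327). Of 22 G1 and S phase genes 4 (18.2%) were higher at ZT20 and 7 (31.8%) higher at ZT8. Over all genes tested these shares were 13.5% and 15.6%. The 7 genes were 3 without ZT8 replicate 2 and 4 without ZT8 replicate 1 or ZT20 replicate 1. The 4 genes higher at ZT20 were 2 without ZT8 replicate 2. Of 16 G2 and M phase genes, 7 were under the minimum level, and of the 9 tested Aurka and Ccnf were higher at ZT20.

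Higher at ZT8 were Rgs16, a brake on G protein signals, with 156, 102 and 108 FPKM against 2.64, 0.965 and 9.43 (-4.84, SE 0.56, adjusted p = 0.00196), and Upp2, uridine phosphorylase 2, with 345, 328 and 333 against 37.6, 58.5 and 44.0 (-2.84, adjusted p = 0.000134). Rgs16 was low but scattered at ZT20, and Upp2 was tight at ZT8. Gpcpd1, which breaks down glycerophosphocholine, fell by 3.20 from ZT8 to ZT20, and Slc38a3, the glutamine transporter SNAT3, by 1.51, from 1047, 1065 and 918 to 355, 345 and 359. Pcsk4, Syt1, Narf and Clec2h fell by 1.81, 1.52, 1.25 and 2.44. The lincRNA Gm10804 fell from 6.0, 6.32 and 4.21 to 0.0114, 0.0336 and 0.0701, by 2.63 on the log2(FPKM + 1) scale. By fold of the means, 143.7, it was wider than Dbp.

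**Figure D3:**
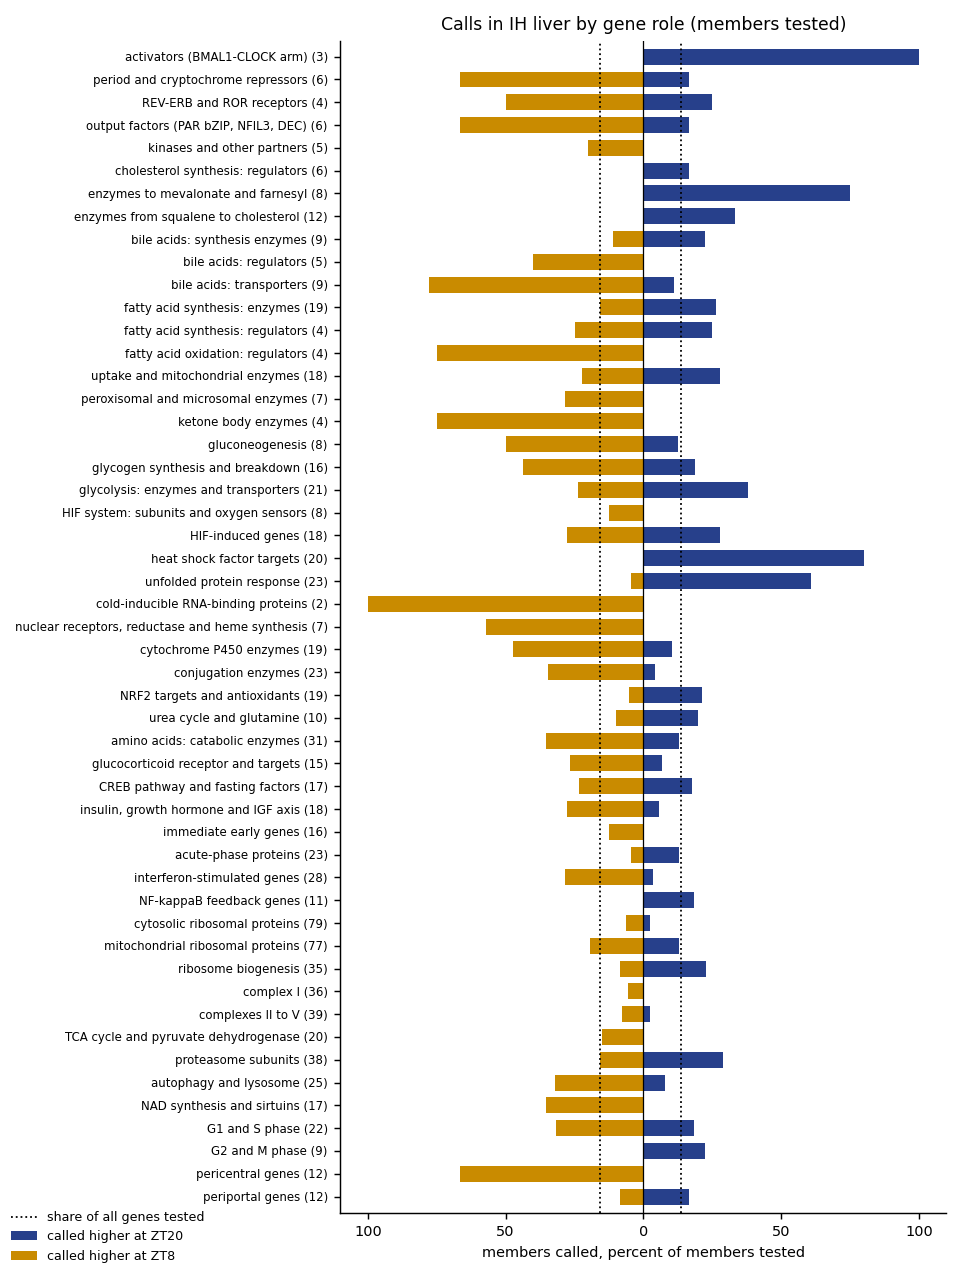
Share of tested members called higher at ZT20 (blue, to the right) and higher at ZT8 (ochre, to the left) for 51 gene roles, with the number tested in brackets and dotted lines at 13.5% and 15.6%, the shares over all genes tested. Heat shock factor targets and early cholesterol enzymes reach furthest right among roles of 8 or more genes, and bile acid transporters and pericentral genes furthest left.

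Chaperone genes were higher at ZT20. Of 20 heat shock factor targets 16 were higher at ZT20 and none higher at ZT8, with a list median of 0.87 against 0.00 over all genes. Hspb1 and Hsp90aa1, which encode HSP27 and the inducible HSP90, led the list. Hspb1 went from 11.2, 11.3 and 11.8 FPKM to 50.1, 114 and 62.7 (2.54, SE 0.27, adjusted p = 0.00157). Hsp90aa1 (chromosome 12, 110690605 to 110702728, minus strand) went from 19.9, 20.0 and 31.7 to 93.8, 131 and 112 (2.21, SE 0.2, adjusted p = 0.000924). In both genes the lowest ZT20 library was well above the highest at ZT8. The co-chaperones Hspa4l and Fkbp4 rose by 1.33 and 1.24, and the near-identical pair Hspa1a and Hspa1b by 1.82 and 2.15, the latter from 1.59, 2.15 and 7.49 to 8.67, 19.0 and 30.1, with a spread that nearly closed the gap (adjusted p = 0.0306). Hspd1, Dnaja1, Hspa4 and Hsf1 itself did not pass, at log2 differences of 0.17, 0.38, 0.16 and 0.20. Under the other settings 11 to 17 were called, the fewest without ZT8 replicate 2.

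The heat shock element stood in the window of 11 of the 16 targets that had one (68.8%), where all genes tested had 7.22%. The list was drawn from known targets, so this restates how its members are known. The Hspb1 window at chr5:135887669-135887968 (plus strand) is shown for its 2 matches, from bases 134 and 154.
Hspb1: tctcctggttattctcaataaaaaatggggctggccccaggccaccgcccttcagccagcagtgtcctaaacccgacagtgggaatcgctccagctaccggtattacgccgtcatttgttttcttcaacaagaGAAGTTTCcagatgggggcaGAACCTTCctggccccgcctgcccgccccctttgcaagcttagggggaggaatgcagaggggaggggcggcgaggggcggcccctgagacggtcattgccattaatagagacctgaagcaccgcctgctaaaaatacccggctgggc

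Endoplasmic reticulum folding genes moved in the same direction. Of 23 genes of the unfolded protein response 14 were higher at ZT20 and 1 higher at ZT8, with a median of 0.53. Calr, the lectin chaperone calreticulin, went from 245, 261 and 254 FPKM to 475, 586 and 515 (1.04, adjusted p = 0.000607), and Dnajb11 by 1.03. Sdf2l1 had the widest difference of the list, from 6.4, 11.0 and 9.72 to 28.8, 60.0 and 39.5 (2.09, adjusted p = 0.00341). The exception was Trib3, a pseudokinase induced by amino acid shortage and stress, which fell from 12.0, 10.9 and 6.29 to 0.736, 1.2 and 0.966 (-2.41, adjusted p = 0.000931). The stress factors Atf4, Ddit3 and Xbp1 were not called. With all 18 IH libraries in 1 fit 8 of the 23 were called higher at ZT20, and without ZT8 replicate 2 it was 9. The cold-inducible RNA-binding proteins mirrored the chaperones, with Rbm3 at 39.5, 34.1 and 38.3 at ZT8 and 13.9, 11.0 and 13.9 at ZT20 (-1.46) and Cirbp at 24.4, 19.4 and 16.4 against 8.43, 8.14 and 7.7 (-1.20). Both passed the test, and neither overlapped, as in 46.4% of all genes tested.

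**Figure D4:**
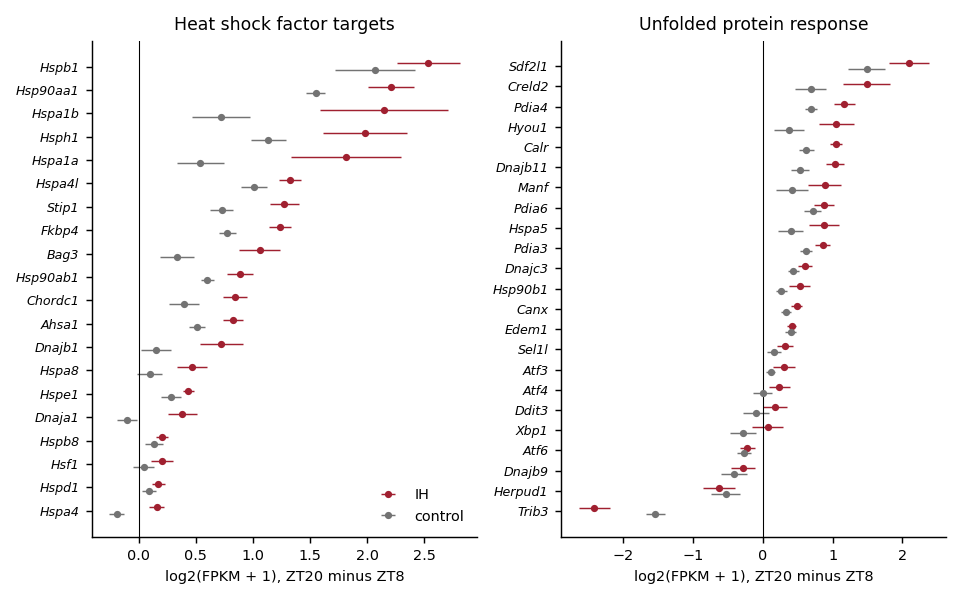
Log2(FPKM + 1) difference, ZT20 minus ZT8, of 20 heat shock factor targets (left) and 23 unfolded protein response genes (right) in IH (red) and control (grey), with bars of 1 SE, n = 3 per time in each condition. In IH 16 and 14 of these genes were called higher at ZT20, and Trib3 lies alone far on the ZT8 side.

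Of 26 sterol synthesis genes 11 were called higher at ZT20, 0 higher at ZT8, and 15 were not called. Of the 8 enzymes up to farnesyl diphosphate 6 were called higher at ZT20 and none higher at ZT8 (median 0.94), and 4 of the 12 from squalene to cholesterol (median 0.33). Pmvk went from 49.5, 46.4 and 30.4 FPKM to 126, 87.7 and 109 (1.35, adjusted p = 0.005), Hmgcs1 by 1.20 and Acat2 by 0.77. Later in the pathway, Sqle (1.00), Lss (1.27) and Dhcr7 (1.05) passed. In several of these genes ZT8 replicate 3 was the lowest of its group. Among the regulators only Insig2, a brake on the transcription factor SREBP, was called, from 22.2, 20.7 and 17.3 to 81.5, 75.8 and 83.8 (1.95, SE 0.095, adjusted p = 0.000109). Without ZT8 replicate 1 or ZT20 replicate 1 only 3 of the 8 early enzymes were called.

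The lipid branch was mixed. Of 19 enzymes of fatty acid and triglyceride synthesis 5 were called higher at ZT20, 3 higher at ZT8 and 11 were not called, with a list median of 0.73. The count at ZT20 was 2 without ZT8 replicate 1, 3 without ZT20 replicate 1 or ZT20 replicate 3 and 10 without ZT20 replicate 2. Agpat2 rose by 1.36 (67.0, 71.8 and 63.7 against 189, 178 and 158) and Acly, which makes cytosolic acetyl-CoA, by 1.45 (51.9, 67.2 and 54.3 against 188, 106 and 199), while Lpin2 fell by 0.80. For fatty acid oxidation the regulators Ppara (-0.92), Ppargc1a (-0.21) and Ppargc1b (-0.59) were higher at ZT8, as was Cpt1a, the gate of mitochondrial fatty acid import, at 92.9, 82.9 and 99.2 against 43.0, 41.2 and 42.4 (-1.10, adjusted p = 0.000322). Of 4 ketone body genes 3 were higher at ZT8 as well, among them Bdh1 (-0.72). This count was 2 with no filter, rescaling to the same sum, median of ratios or quantile normalization. It was also 2 without any 1 library but ZT20 replicate 3. The 3 called regulators were 1 with a replicate block, without ZT8 replicate 2 or without ZT20 replicate 1. On the other side Acsl1 (0.93), Pdk4 (1.91, from 0.587, 0.538 and 0.362 to 5.88, 4.03 and 4.12) and 3 more of the 18 mitochondrial genes were higher at ZT20.

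Of 9 carriers of bile acids and sterols 7 were called higher at ZT8 and 1 higher at ZT20. Abcg5 and Abcg8, whose products form the sterol exporter, had 58.3, 48.8 and 50.4 against 16.1, 14.9 and 13.9 FPKM and 52.0, 44.3 and 45.0 against 15.2, 11.4 and 14.3, with log2 differences of -1.74 and -1.72 (adjusted p = 0.000109 and 0.000327). Abcc2, a canalicular exporter, fell by 1.07, and the uptake carrier Slco1a4 had the widest difference of the list (-1.90). The called count was 7 or 8 under every setting tried. Of the synthesis enzymes Hsd3b7 and Baat were higher at ZT20 and Amacr higher at ZT8. Cyp7a1, the rate-limiting enzyme, did not pass (26.9, 31.5 and 39.1 against 15.7, 9.87 and 29.2, adjusted p = 0.0996). Klb and Nr1h4, a co-receptor and the nuclear receptor that restrain bile acid synthesis, were higher at ZT8.

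Glycogen genes split by direction. Gys2, the liver glycogen synthase (chromosome 6, 142422613 to 142473109, minus strand), was at 145, 126 and 149 FPKM at ZT8 and at 43.0, 39.7 and 46.1 at ZT20 (-1.68, SE 0.086, adjusted p = 0.000123), and Ugp2, which makes UDP-glucose, fell by 1.14. Ppp1r3b, a glycogen-targeting phosphatase subunit, instead went from 16.7, 23.6 and 22.0 to 123, 113 and 80.4 (2.28, adjusted p = 0.000693). None of these 3 genes overlapped between times, which was so for 46.4% of all genes tested. Over the list 3 of 16 were higher at ZT20 and 7 higher at ZT8. Of 8 gluconeogenic genes 4 were higher at ZT8 (2 without ZT8 replicate 2), led by the transporter Slc37a4 (-1.02) and Sds, serine dehydratase (-1.26), and G6pc was higher at ZT20 (1.34, adjusted p = 0.0301). Pck1, the classical rate-limiting enzyme, ranged from 1071 to 1291 at ZT8 and from 212 to 920 at ZT20 and did not pass (adjusted p = 0.161). Among 21 glycolytic genes, where 8 were higher at ZT20 and 5 higher at ZT8, the glucose transporter Slc2a2 fell by 1.29.

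Of 49 xenobiotic metabolism genes 21 (42.9%) were higher at ZT8 and 3 higher at ZT20. Of 19 cytochrome P450 genes tested 9 were higher at ZT8 and 2 at ZT20, of 23 conjugation enzymes 8 and 1, and of 7 receptors, reductases and heme genes 4 and 0. The 8 conjugation enzymes were 5 without any 1 of the ZT8 libraries, without ZT20 replicate 1 or with a replicate block, and 4 with all 18 IH libraries in 1 fit. Por (chromosome 5, 135670033 to 135735326, plus strand), the reductase that feeds electrons to all microsomal P450 enzymes, was at 213, 238 and 209 FPKM at ZT8 and at 64.5, 70.6 and 58.8 at ZT20 (-1.75, adjusted p = 0.000109). Cyp2a5 was at 812, 649 and 660 against 99.0, 128 and 112 (-2.63), and its near-identical relative Cyp2a4, with which it can share reads, fell by 2.36. Cyp2e1, among the most abundant P450 messages, fell from 5169, 4856 and 6077 to 2038, 2166 and 2134 (-1.34, adjusted p = 0.000371). The receptors Nr1i3 (CAR) and Ahr were higher at ZT8 (-0.98 and -0.50), and so were Gstt2 (-1.76), Sult1b1 (-1.19) and Ugt2b36 (-0.45). Cyp2e1 and Slco1b2 (-0.83) also belong to the pericentral list, of which 8 of 12 were higher at ZT8 and none at ZT20, although leaving out any 1 of the 3 ZT8 libraries brought this to 5. Of 12 periportal genes 1, Sds, was higher at ZT8, and Sox9 and Cdh1, which bile duct cells express too, were higher at ZT20 (0.76 and 0.91).

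Among amino acid enzymes 11 of 31 were higher at ZT8 and 4 at ZT20. Ddc, aromatic amino acid decarboxylase, had the widest difference, from 9.76, 9.88 and 7.66 FPKM to 51.0, 45.2 and 47.1 (2.28, adjusted p = 0.000108), and Gldc of the glycine cleavage system rose by 1.20. In the urea cycle and glutamine list of 10 genes Slc25a15 and Glud1 were slightly higher at ZT20 (0.36 and 0.21) and Otc higher at ZT8 (-0.26). Of 19 NRF2 and antioxidant genes 14 were not called and 1 (5.26%, against 15.6% of all genes) was higher at ZT8, with a list median of 0.03. The other 4 (21.1%, against 13.5% of all genes) were higher at ZT20. Among them were Gclc, the rate-limiting enzyme of glutathione synthesis (0.92), and the pentose phosphate enzymes Pgd (1.04) and G6pdx (1.69, from 0.66, 1.06 and 0.963 to 6.97, 2.36 and 7.42).

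Of 18 genes tested that are known to respond to hypoxia-inducible factors 5 were higher at ZT20 and 5 higher at ZT8, with a median of 0.04, and Car9, Epo and Hk2 were under the minimum level. Higher at ZT8 were 1 without ZT8 replicate 2, 2 without ZT20 replicate 1 and 3 without ZT8 replicate 1, and higher at ZT20 were 3 without ZT8 replicate 2. Bnip3, a mitophagy receptor, was at 166, 151 and 143 FPKM at ZT8 and 70.9, 69.4 and 75.9 at ZT20 (-1.08, adjusted p = 0.000322), while Ddit4, an mTOR inhibitor, went from 2.15, 2.49 and 1.69 to 6.9, 9.78 and 10.1 (1.66, adjusted p = 0.000989) and Higd1a rose by 0.29. Of the factors and oxygen sensors only Egln2, a HIF prolyl hydroxylase, was called (-0.35, adjusted p = 0.0165). Epas1, which encodes HIF2 alpha, was at 32.2 to 32.5 at ZT8 and 28.6 to 34.7 at ZT20 and did not pass.

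Protein turnover genes went both ways. Of 38 proteasome subunits tested 11 (28.9%, against 13.5% of all genes) were higher at ZT20. At ZT8 6 (15.8%, against 15.6%) were higher, and the list median was 0.03. The first count was 7 without ZT8 replicate 1, ZT8 replicate 2 or ZT20 replicate 1, and the second 2 or 3 without any 1 library but ZT8 replicate 3. Psmc2 and Psmd14 of the regulatory particle rose by 0.41 and 0.52, and Psmb10, an immunoproteasome subunit, fell by 0.64. In the autophagy and lysosome list 8 of 25 were higher at ZT8 and 2 higher at ZT20. Gabarapl1, which marks autophagosomes, was at 237, 208 and 202 against 97.4, 118 and 105 FPKM (-1.01, adjusted p = 0.000931), and Map1lc3b fell by 0.48. Of the NAD genes 6 of 17 were higher at ZT8 and none at ZT20, among them Nadsyn1 (-0.68), Nmnat3 (-0.73) and the mitochondrial deacetylase Sirt3, at 63.5, 62.4 and 62.5 against 36.6, 44.0 and 37.0 (-0.67).

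Of 15 glucocorticoid targets 4 were higher at ZT8 (0 with all 18 IH libraries in 1 fit) and 1 higher at ZT20, led by the metallothioneins Mt1 (20.4, 32.0 and 20.9 against 7.75, 7.01 and 6.9 FPKM, -1.60) and Mt2 (-1.18). Of 17 CREB pathway and fasting genes 3 (17.6%, against 13.5% of all genes) were higher at ZT20, with Crem at 0.81. Another 4 (23.5%, against 15.6%) were higher at ZT8, with Foxo3 and Sesn1 at -0.36 and -0.43. In the insulin, growth hormone and IGF list of 18, Igfbp4, which binds IGF, and the insulin receptor Insr were among 5 higher at ZT8 (-0.90 and -0.42), and Stat5a was the 1 gene higher at ZT20 (0.60). The 4 CREB pathway genes at ZT8 were 2 without ZT8 replicate 1, ZT8 replicate 2 or ZT20 replicate 1, and the 5 insulin list genes were 2 or 3 without these. Klf10 and Junb were the only 2 of 16 immediate early genes called, both higher at ZT8 (-2.21 and -1.62).

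Of 28 interferon-stimulated genes 8 were higher at ZT8 and 1 at ZT20, with Irf7 at -0.43 and Gbp3 at -0.43, and the count at ZT8 dropped to 3 without ZT8 replicate 2, to 4 without ZT20 replicate 1 or ZT20 replicate 2 and to 5 without ZT8 replicate 1. Of 23 acute-phase genes 3 (13.0%) were higher at ZT20, with Crp at 0.60, and 1 higher at ZT8. Of 11 NF-κB feedback genes 2 (18.2%) were higher at ZT20, and of all genes tested 13.5% were. Marker lists of other cells are given beside these. Kupffer cell and macrophage markers summed to 77.6 to 122 FPKM at ZT8 and 93.9 to 143 at ZT20 with 1 of 12, Marco, called. Endothelial markers summed to 59.6 to 67.3 and 67.1 to 81.3 with 3 of 10 called, and markers of stellate cells and fibroblasts to 113 to 130 and 129 to 147 with 1 of 10 called. Bile duct markers summed to 25.4 to 43.0 and 32.8 to 39.7 with Krt19 and Sox9 called, and 5 erythroid markers to 142 to 193 and 194 to 277 with none of the 3 tested called. Markers of other leukocytes summed to 2.57 to 3.38 and 3.10 to 3.93 with 2 of 9 called, those of adipocytes to 7.05 to 10.6 and 7.00 to 10.8 with none of 2 called (Lep and Plin1 at 0), and those of muscle to 0.529 to 0.850 and 0.922 to 1.17 with 1 of 1 called (Ckm and Myh4 at 0). Acinar markers summed to 15.2 to 20.1 and 9.68 to 13.9 with 1 of 2 called, and Cpa1, Cpb1, Prss2, Pnlip and Ctrb1 were at 0 in all 6 libraries. The part of these cells in the differences was not tested.

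Genes of energy metabolism and translation were called less often than the 29.1% of all genes, except mitochondrial ribosomal protein genes and ribosome biogenesis genes, which were near it. These shares were not tested. Of 36 complex I genes 2 were called (5.56%), Ndufs3 and Ndufc2, both higher at ZT8 at -0.28 and -0.21. Of 39 genes of complexes II to V 1 was higher at ZT20 (Cycs, 0.34) and 3 higher at ZT8, and of 20 TCA cycle genes 3 higher at ZT8. Among 79 cytosolic ribosomal protein genes 7 were called (8.86%), with Rpl22l1 at -0.44 and Rpl7l1 at 0.50. Of the mitochondrial ribosomal protein genes, 10 of 77 were higher at ZT20, with Mrpl34 at 0.71 and Mrps6 at 0.65, and 15 higher at ZT8. Of 35 ribosome biogenesis genes 8 were higher at ZT20, with Nop16 at 0.71, and 3 higher at ZT8, with Npm1 at -0.41. Leaving out ZT8 replicate 1, ZT8 replicate 2 or ZT20 replicate 1 brought the mitochondrial ribosomal counts to 6 at ZT20 and 5 to 8 at ZT8, the cytosolic ribosomal count at ZT8 from 5 to 2 and the biogenesis count at ZT20 to 5. Leaving out ZT20 replicate 2 brought the biogenesis count at ZT20 to 14 and the mitochondrial ribosomal one to 6, and leaving out ZT20 replicate 3 brought the cytosolic ribosomal count at ZT8 to 2.

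The same contrast in the control mice gave 707 genes (5.35%) higher at ZT20 and 865 (6.55%) higher at ZT8. This split of 45.0% of calls at ZT20 became 56.5% under median-of-ratios scaling, with 1015 and 781 genes. Of the genes higher at ZT20 in IH 578 were also called that way in control, which was 32.3% of the IH calls and 81.8% of the control calls, and 1662 (92.9%) had the same sign. Of those higher at ZT8 676 were shared, 32.8% of the IH and 78.2% of the control calls, with 1987 (96.5%) of the same sign. The number of calls alone does not compare the conditions, because the spread between replicates differed (median SD 0.102 in control) and a difference in calls is not a test. In the genes called in control, the median size at ZT20 was 0.51 in control and 0.60 in IH, with 440 of 707 (62.2%) wider in IH, and at ZT8 it was 0.44 and 0.47, with 463 of 865 (53.5%) wider in IH.

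Tested directly, the difference between the IH and the control contrast passed for 0 of 13215 genes (0%) in limma, with a smallest adjusted p of 0.116 and 1347 genes (10.2%) at an unadjusted P under 0.05. The 5 genes of smallest P were named by rule. Chka rose by 3.42 in IH and by 2.63 in control, from a mean of 4.08 to 30.6 FPKM there, a difference of 0.79 (unadjusted P = 1.76e-05, adjusted p = 0.116). Gm3704 and Flcn, the latter encoding folliculin of the nutrient-sensing pathway, fell more in IH, by 1.32 against 0.51 and by 1.49 against 0.79. Gpd1, the cytosolic glycerol phosphate dehydrogenase, and Sap30, a histone deacetylase partner, were higher at ZT20 in IH (0.44 and 0.47) with control values of -0.30 and -0.11. None of the 5 differences between conditions passed after adjustment, at adjusted p from 0.116 to 0.142.

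List medians in the 2 conditions are given side by side and were not compared by a test. Over all genes 13.5% were called higher at ZT20 in IH and 5.35% in control, so the counts of calls do not compare the conditions. For heat shock factor targets the medians were 0.87 in IH and 0.45 in control, with 16 and 8 of 20 called higher at ZT20, and for the unfolded protein response 0.53 and 0.37, with 14 and 9 of 23. For early cholesterol enzymes they were 0.94 and 0.53, with 6 and 4 of 8 called. Among clock genes Dbp was at -5.54 and -5.18, Nr1d1 at -5.11 and -4.64, Arntl at 3.23 and 3.08, Nfil3 at 2.49 and 2.47 and Cry1 at 2.26 and 2.27. The bile and sterol carriers had medians of -0.83 and -0.72, pericentral genes of -0.42 and -0.51 and ketone body enzymes of -0.31 and -0.36.

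**Figure D5:**
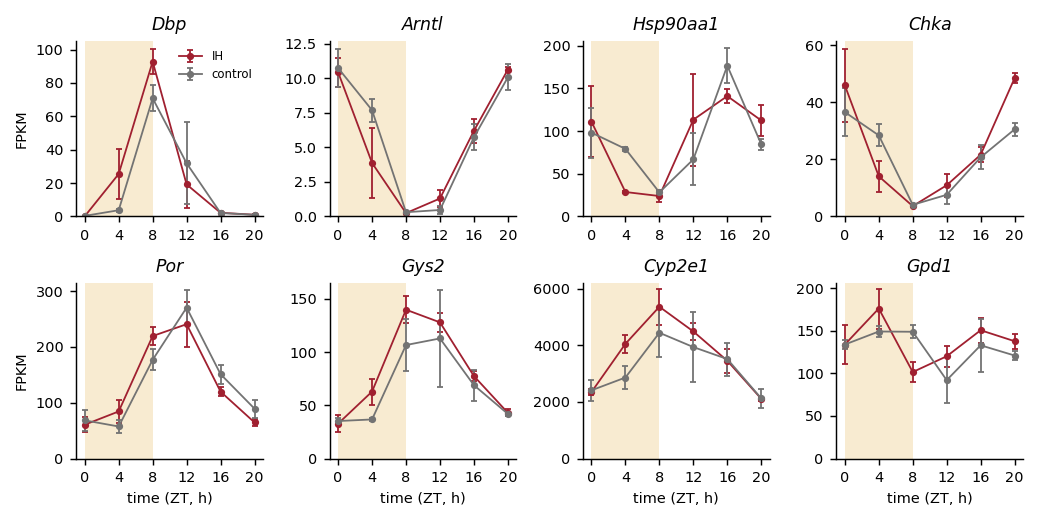
Mean FPKM ± SD (n = 3 per point) of 8 genes over 6 times in IH (red) and control (grey), with the ZT0 to ZT8 window shaded. Dbp, Por, Gys2 and Cyp2e1 were higher at ZT8 than at ZT20 in both conditions, Arntl, Hsp90aa1 and Chka higher at ZT20, and Gpd1 was higher at ZT20 in IH and higher at ZT8 in control.

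The time courses place both samples within the day. In IH Dbp was highest at ZT8 (92.8 FPKM) and had dropped to 19.2 by ZT12, and Arntl was lowest at ZT8 (0.243) and highest at ZT20. Hsp90aa1 was lowest at ZT8 (23.9) and highest at ZT16 (141), so that the ZT20 value of 112 lay past its peak. Por peaked at ZT12 (241), after the ZT8 value of 220, and was down to 64.7 at ZT20. Cyp2e1 had its highest mean at ZT8 (5367) and its lowest at ZT20 (2113) in IH. The contrast of ZT20 with ZT8 therefore caught the full range of Cyp2e1 and Arntl and only part of that of Hsp90aa1 and Por.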

How the data were processed

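Liver mRNA (stranded polyA libraries, paired reads) was deposited by the authors as 2 tables of FPKM, 1 for IH and 1 for control, with 18 libraries each. The submitters' processing notes name TopHat2 2.1.1, Cufflinks 2.2.1 and the build mm10. The annotation is not given in the sources used here. The deposited columns were all mapped to samples (0 unused). Of 24346 symbols, 280 were dropped because several rows carried them, and 13215 whose average across the 36 libraries reached 0.1 FPKM were tested. FPKM can split reads among near-identical genes, and no read counts were at hand, so no count model was run.

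Differences of log2(FPKM + 1) were tested with limma 3.58.1 (R 4.3.3) with an intensity trend, 3 mice against 3, and p-values were adjusted by Benjamini-Hochberg over all genes tested. IH used its 6 libraries, control its 6, and the interaction all 12. Tables and plots were made with Python 3.11.15, numpy 2.4.6, pandas 2.3.3 and matplotlib 3.10.9. On simulated data with normal noise, 200 of 13215 genes were changed by a log2 difference of 1. They were drawn from genes with a mean log2(FPKM + 1) above 1. Of these, 90.5% were recovered for IH, 90% for control and 85% for the interaction. Smaller differences and genes of lower level were not simulated as changed, so their recovery is not known. Gene coordinates came from GENCODE vM21 and promoter windows from RefSeq GRCm38.p6, and counts by list used symbols.

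Named genes were the 10 of smallest P and the 10 of largest difference in each direction, the core clock, up to 3 per role by P and then level, and 5 from the interaction. Some others were named after their values were seen: Atf4, Cyp7a1, Ddit3, Dnaja1, G6pc, Hsf1, Hspa1a, Hspa1b, Hspa4, Hspb1, Hspd1, Pck1, Sdf2l1, Slco1a4, Xbp1 and the cell markers. Some genes that these rules name are not reported here. The members and lists were chosen with earlier results of these data known. Alternatives were another pseudocount (0.1), no filter or a mean of at least 1 FPKM, rescaling to the same sum, median of ratios, quantile normalization, a replicate block, all 18 libraries of a condition in 1 fit, no trend, an unadjusted P of 0.01 and leaving out each library.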

Additional observations from a re-analysis of the deposited data

Results flagged for a closer look

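Gpd1, Hspa4 and Sap30 are set out here as the genes named above that showed 1 pattern. All 3 IH libraries of ZT20 lay above all 3 of ZT8, while all 3 control libraries of ZT20 lay below all 3 of ZT8. Among all genes tested 36 (0.272%) had this pattern and 19 (0.144%) the reverse one. Groups of 3 libraries can fall this way without any difference between times, and these shares were not tested against that. For Gpd1, the glycerol phosphate dehydrogenase, IH had 91.1, 99.3 and 114 FPKM at ZT8 and 143, 128 and 142 at ZT20, and control had 145.6, 157.3 and 143.7 against 126.3, 121.3 and 115.4. The difference in IH exceeded that in control by 0.74 on the log2 scale (SE 0.118, limma interaction, unadjusted P = 6.57e-05, adjusted p = 0.142). Gpd1 was also the 1 gene called in opposite directions in the 2 conditions (0.44, adjusted p = 0.0148, and -0.30, adjusted p = 0.0372).

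For Sap30 the values were 1.73, 1.45 and 1.82 against 2.60, 2.84 and 2.64 FPKM in IH and 2.31, 2.29 and 2.48 against 1.97, 2.18 and 2.18 in control, with an interaction of 0.585 (unadjusted P = 6.75e-05, adjusted p = 0.142). For Hspa4, an HSP110 chaperone, IH had 19.7, 18.2 and 20.4 against 21.5, 22.8 and 20.9 FPKM and control 22.5, 21.6 and 22.9 against 18.5, 20.4 and 19.4, with an interaction of 0.35 (unadjusted P = 0.00169, adjusted p = 0.25). None of the 3 interactions passed after adjustment.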

How the results depend on the processing

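Without 1 of the 6 libraries, 1034 to 1738 genes were called higher at ZT20 in IH and 1229 to 1879 higher at ZT8. In control they were 300 to 696 and 204 to 1399. Control ZT8 replicate 1 gave the highest counts when left out (696 and 1399), and leaving out ZT8 replicate 2 (302 and 204), ZT8 replicate 3 (300 and 239), ZT20 replicate 1 (437 and 307), ZT20 replicate 2 (334 and 293) or ZT20 replicate 3 (351 and 280) gave fewer. The genes called in the interaction of condition and time numbered 0 or 1 without a library and 370 at an unadjusted P of 0.01 or less. With all 18 control libraries in 1 fit, 374 and 224 genes were called. The cause was not tested. A pseudocount of 0.1, the filters, the scalings, the trend setting and all 18 IH libraries in 1 fit gave 1579 to 2104 and 1862 to 2199 genes in IH.

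Replicate numbers were shared between times, but mice were different and not all same-numbered libraries deviated together (r = 0.1, -0.097 and -0.035 in IH; 0.304, 0.239 and 0.016 in control). With a replicate block 1380 and 1656 genes were called in IH, 660 and 772 in control and 0 in the interaction.

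Of the 144 called genes named, 117 stayed called under every alternative in which they were tested, none changed sign, and 27 lost the call under at least 1: Ahr, Btrc, Cry2, Egln2, G6pc, G6pdx, Glud1, Gpd1, Hspa1a, Hspa1b, Irf7, Junb, Krt19, Lpin2, Marco, Mt1, Mt2, Ndufc2, Ndufs3, Nr1h4, Otc, Per1, Ppargc1a, Ppargc1b, Rpl22l1, Slc25a15 and Ugt2b36. With a mean of at least 1 FPKM required, Aurka, Bhlhe41, Ccne1, Ppargc1a and Ppargc1b were not tested. Genes that were not called changed sign when a library was left out, with ranges of -0.043 to 0.092 for Epas1, -0.19 to 0.17 for Per2, -0.028 to 0.16 for Rora and -0.18 to 0.21 for Xbp1. Of the counts by gene role, 1383 stayed within 1.5 times and 249 did not.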
